A study of Rattus norvegicus with 9 samples.

Results

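Glucocorticoids are steroid hormones that the adrenal gland releases in a daily rhythm and under stress. In the brain they act through a pair of nuclear receptors, the glucocorticoid receptor (Nr3c1) and the mineralocorticoid receptor (Nr3c2), which are held by chaperones in the cytoplasm and, once bound by hormone, enter the nucleus and act on nearby genes. The genes described here are these 2 receptors and 7 known targets: Fkbp5, Sgk1, Tsc22d3, Mt2A, Cdkn1a, Dusp1 and Zbtb16. They were chosen by name: each is the locus of the count table whose annotated gene name matched on the same strand, and for a name with several such loci the one with the highest mean count. All 9 genes were found and all 9 passed the filter on low counts, among 39057 loci tested of 114601 in all. The rule used no difference between groups.

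RNA was sequenced from whole brains of 9 male rats that had never been given alcohol and had no other treatment. There were 3 homozygous Lrap-/- rats, 3 heterozygous Lrap-/+ rats and 3 wild-type Wistar rats from Charles River. The mutants carry the allele Crl:WI-Lrapem1Geh, in which CRISPR/Cas9 removed 618 bp of Lrap, a long non-coding RNA gene. The sources used here do not say whether the wild-type rats were littermates of the mutants, so that line and genotype cannot be told apart, nor do they give age, time of day or handling at collection. In bulk tissue, fewer cells of a type and less RNA per cell cannot be told apart either.

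Libraries held 27489383 to 46975919 expected counts. Of the 4 isoforms annotated as Lrap, MSTRG.24458.2 was at 0.264 to 0.405 CPM in Lrap-/- rats, 0.991 to 1.11 CPM in Lrap-/+ rats and 1.85 to 2.53 CPM in wild-type rats. The other 3 isoforms overlapped between genotypes, and none had a lower mean in Lrap-/- than in wild-type rats. The most abundant, MSTRG.24458.1, averaged 3.70 CPM in Lrap-/- rats, 3.17 CPM in Lrap-/+ rats and 3.07 CPM in wild-type rats. CPM is a locus's count scaled to a common library total, with library sizes adjusted by the trimmed mean of M-values (TMM), and values are listed from rat 1 to rat 3 of each genotype. Neuronal markers summed to 1812 to 2493 CPM over the 9 libraries, as a check of the labelled tissue, and none of the 6 was at 0. Wild-type rat 2 stood apart, with 40.4% of its counts from mitochondrial genes against 14.8 to 28.1% in the other 8 libraries. The synthetic spike-in RNAs fell into 2 patterns: wild-type rat 2 and the 3 Lrap-/- rats shared 1 pattern, and the other 5 libraries shared the other. Only wild-type rat 2 therefore sets genotype apart from spike-in pattern in Lrap-/- against wild type. In Lrap-/- against Lrap-/+ rats the pattern and the genotype coincide in every library and cannot be told apart. Loci with a gene symbol had a median log2 fold change of 0.14 for Lrap-/- against wild type, and fold changes below are read beside that shift.

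No receptor or target passed the test across all loci in any comparison. At an unadjusted p of 0.05, 3 of the 9 passed for Lrap-/- against wild type (Mt2A, Cdkn1a and Dusp1, all higher). That count was 1 without wild-type rat 2, 1 without Lrap-/- rat 2, 4 without wild-type rat 3 and 2 when only loci with a gene symbol set the scaling. Over all loci 9.13% passed in either direction, and of 16576 loci with a symbol 1664 passed in the higher direction. The log2 fold changes of the receptors were 0.03 for Nr3c1 and -0.04 for Nr3c2. All 7 targets had a mean that was highest in Lrap-/- rats, intermediate in Lrap-/+ rats and lowest in wild-type rats, a pattern of 24.5% of all tested loci and 46.0% of loci with a symbol.

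Promoter sequence was available for 7 of the 9 genes, as 12 windows of the 250 bases before a transcription start, from RefSeq on build GRCr8, which differs from the build of the counts. Both strands were searched. The full receptor palindrome, AGAACA and TGTTCT with 3 bases of any kind between them, was in 0 of the 12 windows and in 0.0120% of 33469 rat windows of that length. Its core ACANNNTGT was in 1 of the 12, a Tsc22d3 window, and in 5.81% of all. The 3 windows printed are those of targets that hold a match to a hormone, metal or cyclic AMP motif, with those matches in capitals. In the Mt2A window the capitals mark the metal response cores TGCGCNC (11.8% of all windows) and TGCACAC (3.65%), which start 220, 165, 111 and 55 bases before the transcription start. The Dusp1 window holds the cyclic AMP response element TGACGTCA (1.59% of all windows), 124 bases before the start. The Tsc22d3 window holds the core ACANNNTGT, 183 bases before its start. None of the marked matches overlaps another. The AP-1 element TGACTCA (4.05% of all windows) and TATAAA (12.9%) were also searched, and the Mt2A window holds them 237 and 31 bases before its start, in lower case. The windows are Mt2A at chr19:10838709-10838958 (minus strand), Dusp1 at chr10:17184603-17184852 (plus strand) and Tsc22d3 at chrX:109065431-109065680 (minus strand), each 5′ to 3′ along the gene.
Mt2A: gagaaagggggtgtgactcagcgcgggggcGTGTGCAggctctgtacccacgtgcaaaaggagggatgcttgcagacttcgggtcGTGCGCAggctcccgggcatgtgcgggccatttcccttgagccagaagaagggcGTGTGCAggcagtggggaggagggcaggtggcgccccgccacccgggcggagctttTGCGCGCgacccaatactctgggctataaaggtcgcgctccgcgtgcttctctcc
Dusp1: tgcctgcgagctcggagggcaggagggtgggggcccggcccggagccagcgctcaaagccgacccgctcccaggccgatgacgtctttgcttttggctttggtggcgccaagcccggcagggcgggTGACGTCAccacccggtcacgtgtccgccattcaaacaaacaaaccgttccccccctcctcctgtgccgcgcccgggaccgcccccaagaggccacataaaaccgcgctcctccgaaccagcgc
Tsc22d3: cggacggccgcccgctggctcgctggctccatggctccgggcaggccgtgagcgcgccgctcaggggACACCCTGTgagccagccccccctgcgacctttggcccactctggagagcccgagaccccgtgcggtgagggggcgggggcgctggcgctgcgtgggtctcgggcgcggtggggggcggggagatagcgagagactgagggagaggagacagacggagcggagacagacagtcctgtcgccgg

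Nr3c1, the glucocorticoid receptor, is a hormone-activated transcription factor. It was at 50.3, 44.3 and 56.9 CPM in Lrap-/- rats 1 to 3, at 42.4, 49.7 and 46.9 CPM in Lrap-/+ rats 1 to 3 and at 44.6, 42.2 and 61.2 CPM in the wild-type rats. Wild-type rats held both the highest and the lowest of these 9 values, and the genotypes overlapped. The log2 fold change for Lrap-/- against wild type was 0.03 (SE 0.17, edgeR adjusted p = 0.952). The locus (MSTRG.46180) lies on the minus strand at chr18:31728373-31777452 (rn6).

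Nr3c2, the mineralocorticoid receptor, binds corticosterone with high affinity in forebrain neurons. It was at 33.4, 30.4 and 33.1 CPM in Lrap-/- rats 1 to 3, at 31.9, 34.9 and 33.4 CPM in Lrap-/+ rats 1 to 3 and at 30.3, 35.2 and 34.3 CPM in the wild-type rats. The genotypes overlapped, and no library fell far from the rest. Its log2 fold change for Lrap-/- against wild type was -0.04 (SE 0.14, edgeR adjusted p = 0.924). The coefficient of variation over the 9 rats was 5.42%, against a median of 14.3% for the 2769 symbol loci of similar level, of which 1.55% varied less. The locus (MSTRG.49629) lies on the minus strand at chr19:34408259-34752695 (rn6).

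Per unit of transcript length, the mineralocorticoid receptor was the more abundant receptor at these loci. In the authors' TPM, which divides counts by transcript length, Nr3c2 averaged 4.57 ± 1.37 and Nr3c1 2.06 ± 0.722 (SD, n = 9), and Nr3c2 was the higher in 9 of 9 rats, by 1.82 to 2.67 times. This order depends on the assembled lengths, 12415 bases for the Nr3c1 transcript and 2631 and 5268 bases for those of Nr3c2. In CPM, which is not divided by length, Nr3c1 had the higher mean (48.7 against 33.0). The order also depends on which locus stands for Nr3c1. A single-exon locus of the same name (MSTRG.46204, chr18:32669427-32670665 on the minus strand, rn6) averaged 5.29 ± 0.666 TPM in Lrap-/- rats, 7.16 ± 2.74 TPM in Lrap-/+ rats and 8.78 ± 2.61 TPM in wild-type rats (SD, n = 3 each), and it exceeded Nr3c2 in 9 of 9 rats. Both Nr3c1 loci gave overlapping genotypes in CPM.

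The TPM levels of the 9 genes, from high to low, were Mt2A (14.9 ± 2.79), Tsc22d3 (9.59 ± 3.04), Sgk1 (6.23 ± 1.60), Dusp1 (5.72 ± 2.69), Nr3c2 (4.57 ± 1.37), Fkbp5 (2.08 ± 0.601), Nr3c1 (2.06 ± 0.722), Zbtb16 (1.73 ± 0.482) and Cdkn1a (0.848 ± 0.144; SD, n = 9 each). Neighbours in this order had overlapping ranges over rats except at 2 steps, Nr3c2 above Fkbp5 and Zbtb16 above Cdkn1a. Mt2A exceeded Tsc22d3, and Tsc22d3 exceeded Sgk1, within each of the 9 rats although their ranges overlapped. By group means the middle of the order differed between genotypes. In Lrap-/- rats Dusp1 (mean 6.90 TPM) stood above Sgk1 (5.17) and Nr3c2 (3.35). In wild-type rats Sgk1 (7.44) and Nr3c2 (5.76) stood above Dusp1 (4.88). Single rats departed from these orders: Lrap-/- rat 1 had Sgk1 (4.40 TPM) above Dusp1 (3.71). Wild-type rat 1 had Dusp1 (6.76 TPM) above Nr3c2 (5.01).

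Mt2A encodes a metallothionein, a small cysteine-rich protein that binds zinc and copper, and it is induced by metals as well as by glucocorticoids. It was at 7.83, 8.30 and 9.21 CPM in Lrap-/- rats 1 to 3, at 4.94, 6.91 and 8.56 CPM in Lrap-/+ rats 1 to 3 and at 4.73, 5.75 and 5.14 CPM in the wild-type rats. Every Lrap-/- rat was above every wild-type rat, as at 7.29% of all loci and 14.5% of loci with a symbol, while Lrap-/+ rats reached from the wild-type range into the Lrap-/- range. The log2 fold change for Lrap-/- against wild type was 0.70 (SE 0.22) and missed the threshold (edgeR adjusted p = 0.544). The slope per deleted allele was 0.35 log2 units (SE 0.10, edgeR adjusted p = 0.444). The locus (MSTRG.48570) lies on the minus strand at chr19:11307967-11308740 (rn6). Metallothioneins are a family of close copies, and the counts of Mt2A were whole numbers in all 9 libraries within 0.005.

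Cdkn1a encodes p21, an inhibitor of cyclin-dependent kinases. It was at 3.32, 3.88 and 3.78 CPM in Lrap-/- rats 1 to 3, at 2.53, 2.75 and 4.15 CPM in Lrap-/+ rats 1 to 3 and at 2.33, 2.16 and 2.61 CPM in the wild-type rats. Every Lrap-/- rat was above every wild-type rat, as at 7.29% of all loci and 14.5% of loci with a symbol. The highest of the 9 values was that of Lrap-/+ rat 3. The log2 fold change for Lrap-/- against wild type was 0.63 (SE 0.24) and missed the threshold (edgeR adjusted p = 0.544). Its counts were low, 75 to 166 in each Lrap-/- library and 83 to 104 in each wild-type library. The locus (MSTRG.61995) lies on the plus strand at chr20:6351458-6358864 (rn6).

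Dusp1 encodes a phosphatase that switches off MAP kinases and is induced both by glucocorticoids and by neuronal activity. It was at 18.1, 49.5 and 29.6 CPM in Lrap-/- rats 1 to 3, at 8.70, 15.1 and 38.3 CPM in Lrap-/+ rats 1 to 3 and at 19.4, 10.2 and 11.1 CPM in the wild-type rats. Lrap-/- rat 2 and Lrap-/+ rat 3 were far above the rest of their groups, and wild-type rat 1 lay above Lrap-/- rat 1, so that the groups overlapped. The log2 fold change for Lrap-/- against wild type was 1.26 (SE 0.54, edgeR adjusted p = 0.544). Dusp1 had the widest spread of the 9 genes, with a coefficient of variation of 63.4% over rats, and 99.7% of 3152 symbol loci of similar level varied less. The locus (MSTRG.13809) lies on the plus strand at chr10:16970587-16973418 (rn6).

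Tsc22d3 encodes the glucocorticoid-induced leucine zipper protein GILZ, which restrains inflammatory transcription factors. It was at 35.5, 33.6 and 39.5 CPM in Lrap-/- rats 1 to 3, at 26.0, 35.5 and 39.4 CPM in Lrap-/+ rats 1 to 3 and at 26.5, 18.8 and 35.5 CPM in the wild-type rats. Wild-type rat 2 was the lowest of all 9 rats, and wild-type rat 3 reached the Lrap-/- range. The log2 fold change for Lrap-/- against wild type was 0.43 (SE 0.23, edgeR adjusted p = 0.545), while without wild-type rat 2 it was 0.22 and without wild-type rat 3 it was 0.70. The locus (MSTRG.113187) lies on the minus strand at chrX:111884295-111943778 (rn6).

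Sgk1 encodes a kinase that acts on ion channels and transporters and is a target of both receptors. It was at 29.1, 33.5 and 35.1 CPM in Lrap-/- rats 1 to 3, at 26.4, 28.6 and 32.0 CPM in Lrap-/+ rats 1 to 3 and at 27.1, 21.7 and 31.1 CPM in the wild-type rats. Wild-type rat 2 was again the lowest, and the genotypes overlapped. The log2 fold change for Lrap-/- against wild type was 0.29 (SE 0.17, edgeR adjusted p = 0.562), while without wild-type rat 2 it was 0.16 and without wild-type rat 3 it was 0.45. The locus (MSTRG.969) lies on the minus strand at chr1:24185435-24302298 (rn6).

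Fkbp5 encodes a co-chaperone that lowers the affinity of the glucocorticoid receptor for its hormone, and it is among the genes most often used as a readout of receptor activity. It was at 13.1, 14.2 and 13.1 CPM in Lrap-/- rats 1 to 3, at 12.8, 13.4 and 13.8 CPM in Lrap-/+ rats 1 to 3 and at 14.8, 10.99 and 13.5 CPM in the wild-type rats. The range over wild-type rats held every other value. Its log2 fold change for Lrap-/- against wild type was 0.04 (SE 0.16, edgeR adjusted p = 0.935), below the median of loci with a symbol. The locus (MSTRG.62160) lies on the minus strand at chr20:7976713-8097320 (rn6).

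Zbtb16 encodes the zinc-finger repressor PLZF, which is strongly induced by glucocorticoids in many cell types. It was at 27.9, 28.2 and 22.8 CPM in Lrap-/- rats 1 to 3, at 23.5, 26.0 and 25.5 CPM in Lrap-/+ rats 1 to 3 and at 28.5, 24.1 and 20.03 CPM in the wild-type rats. Wild-type rats held both the highest and the lowest value. Its log2 fold change for Lrap-/- against wild type was 0.12 (SE 0.17, edgeR adjusted p = 0.806). The locus (MSTRG.100646) lies on the minus strand at chr8:52980100-53147952 (rn6).

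**Figure D1:**
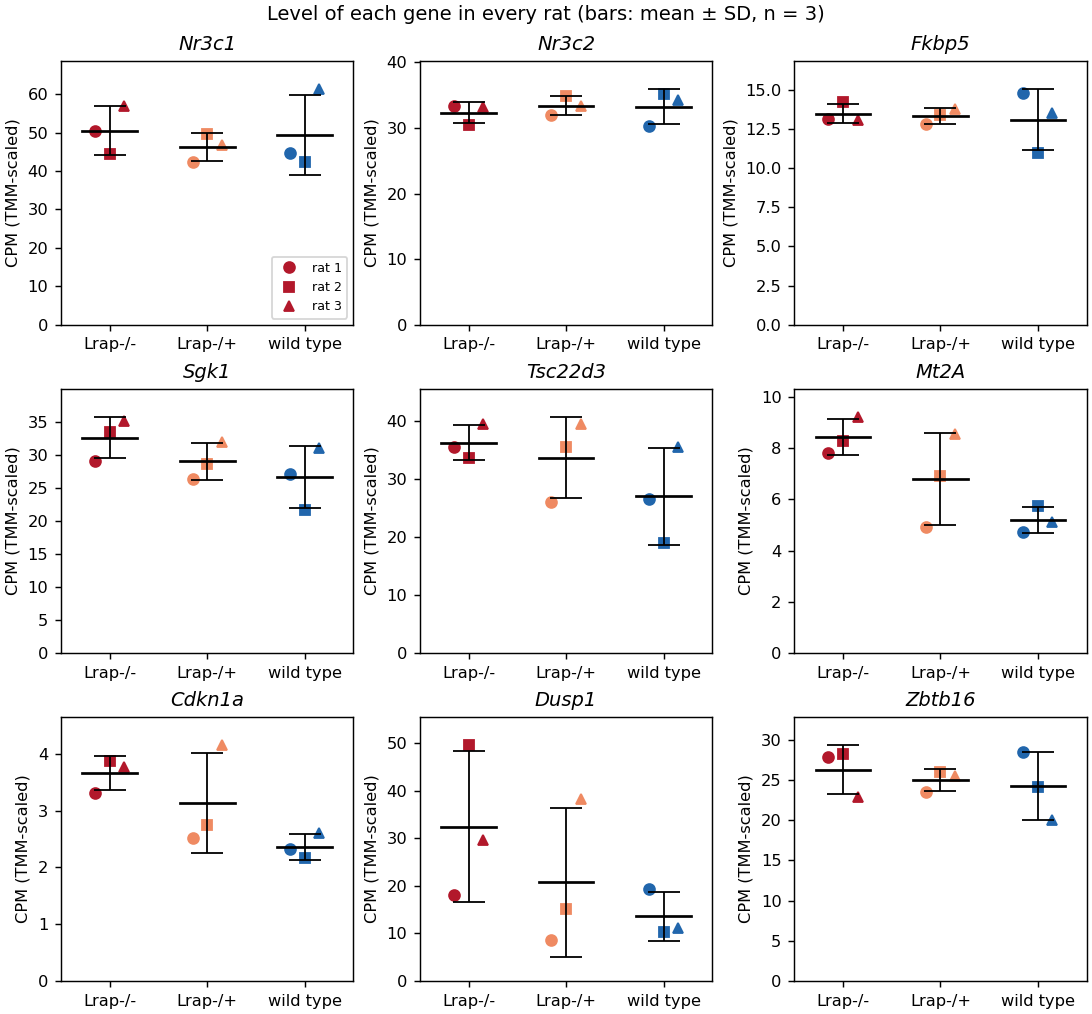
CPM of the 2 receptors and 7 targets in every rat, by genotype, with the mean and SD of 3 rats as black bars and each rat's number as a symbol. Mt2A and Cdkn1a are the panels in which all Lrap-/- rats lie above all wild-type rats, as at 7.29% of all loci and 14.5% of loci with a symbol. In all the other panels, those of Sgk1, Tsc22d3 and Dusp1 included, each pair of genotypes overlaps.

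In Lrap-/+ against wild-type rats, 0 of the 9 genes passed either at the adjusted threshold (0.00768% of all loci passed) or at an unadjusted p of 0.05 (3.72%). Point estimates for the targets ran from 0.03 log2 units for Fkbp5 to 0.61 for Dusp1 (SE 0.53), and those of the receptors were -0.09 for Nr3c1 and 0.01 for Nr3c2. In Lrap-/- against Lrap-/+ rats, 0 of the 9 passed at the adjusted threshold (0.00256%) or at an unadjusted p of 0.05 (1.71%). The largest estimate there was 0.65 for Dusp1 (SE 0.53), and spike-in pattern cannot be told apart from genotype in this comparison. For the slope per deleted allele 0 of the 9 passed (0% of all loci), and 3 of the 9 had an unadjusted p of 0.05 or less (10.9% of all loci), again Mt2A, Cdkn1a and Dusp1. In Lrap-/- against wild-type rats 0% of loci passed at the adjusted threshold. These comparisons share rats and are not independent of each other.

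**Figure D2:**
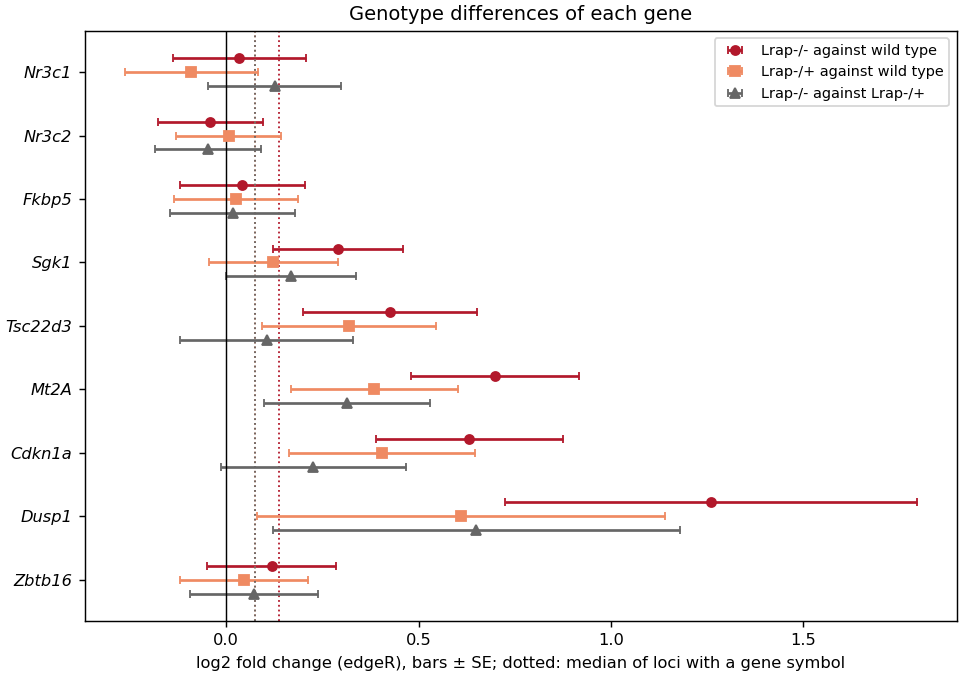
Log2 fold changes of the 9 genes with their standard errors for Lrap-/- against wild type, Lrap-/+ against wild type and Lrap-/- against Lrap-/+, with dotted lines at the median of loci with a gene symbol (0.14, 0.074 and 0.075). The targets Mt2A (0.70), Cdkn1a (0.63) and Dusp1 (1.26) lie farthest right for Lrap-/- against wild type, and the receptors lie near 0.

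The direction of most members depended on the scaling. When only loci with a symbol were used to scale the libraries, the median log2 fold change of those loci became -0.01 and 5 of the 9 members stayed higher in Lrap-/- rats: Sgk1, Tsc22d3, Mt2A, Cdkn1a and Dusp1. Under that scaling Mt2A averaged 9.17 CPM in Lrap-/- rats and 6.38 CPM in wild-type rats, and 5 members had means that followed the number of deleted alleles, against 28.5% of symbol loci. Nr3c1, Fkbp5 and Zbtb16 turned to log2 fold changes of -0.11, -0.11 and -0.055, and Nr3c2 was at -0.21. In the authors' TPM the median symbol locus had a log2 difference of -0.55 between Lrap-/- and wild-type rats, and of the 9 members only Dusp1 was higher in Lrap-/- rats (0.41, two-sided exact permutation p = 0.6). Mt2A (-0.10) and Cdkn1a (-0.13) lay above that median, and Nr3c1 (-0.70), Nr3c2 (-0.76), Fkbp5 (-0.69) and Zbtb16 (-0.63) below it. For these last 4 and for Sgk1 (-0.50, above that median) the exact permutation p was 0.1, the smallest that 3 against 3 rats allow. The share of all loci at that p was not computed. In the same unit limma called 3860 of 39057 loci lower and 7 higher in Lrap-/- than in wild-type rats.

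Leaving out single wild-type rats moved the targets. Their median log2 fold change for Lrap-/- against wild type was 0.43 with all rats, 0.22 without wild-type rat 2 and 0.70 without wild-type rat 3. Mt2A was at 0.78 and Cdkn1a at 0.57 without wild-type rat 2. With the spike-in pattern as a term, which leaves wild-type rat 2 as the wild type of the Lrap-/- pattern, the median of the targets was 0.59, that of symbol loci 0.36, and 2188 loci passed, among them 0 of the 9 members.

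**Figure D3:**
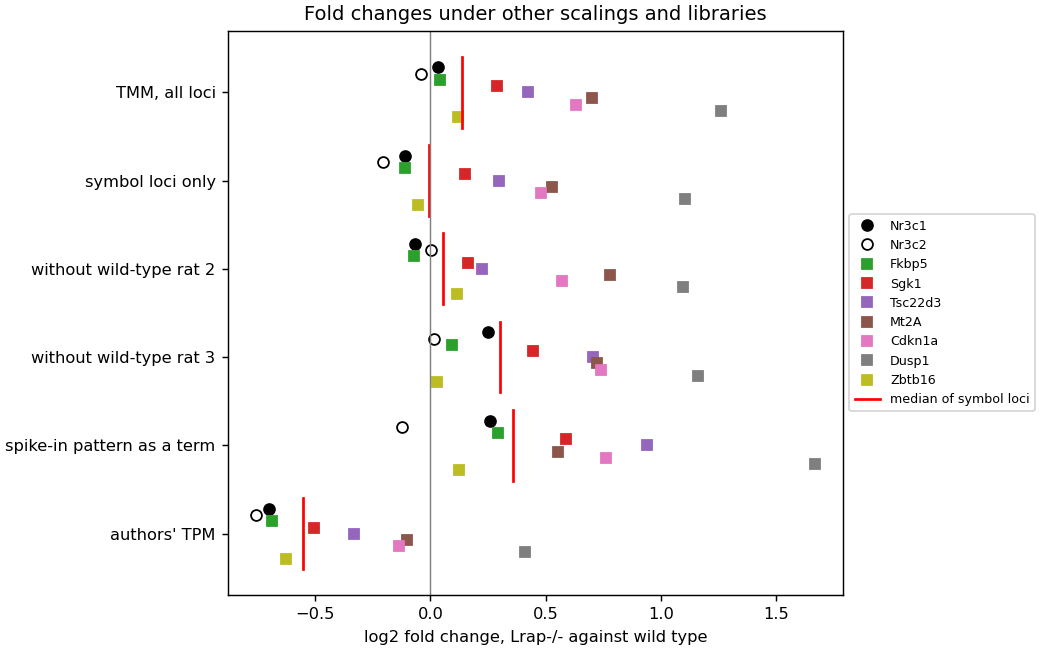
Log2 fold change of each gene for Lrap-/- against wild type under 6 settings, with the median of loci with a gene symbol as a red line. Dusp1 lies to the right in each setting (1.26 by TMM over all loci and 0.41 by TPM), while Mt2A is at 0.70 by TMM over all loci and -0.10 by TPM.

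Markers of cell types and regions were also set beside the 9 genes, only with TMM scaling over all loci. In Lrap-/- against wild-type rats, all 6 markers were higher in each of the astrocyte, oligodendrocyte, neuron, cerebellar, hypothalamic, microglial and meningeal lists. Their median log2 fold changes were 0.25, 0.34, 0.19, 0.45, 0.61, 0.48 and 0.73 in that order, against 0.14 for symbol loci. Endothelial (4 of 5 higher), pituitary (3 of 4, from a list that holds Pomc), hippocampal (2 of 4) and choroid plexus (1 of 6) markers were mixed. All 6 microglial markers were higher in Lrap-/- rats, with a sum of 56.4 to 64.6 CPM in Lrap-/- rats, 46.9 to 59.3 CPM in Lrap-/+ rats and 39.3 to 51.4 CPM in wild-type rats. The 6 meningeal markers, which were also all higher, summed to 85.2 to 115 CPM in Lrap-/- rats, 91.3 to 218 CPM in Lrap-/+ rats and 41.7 to 82.2 CPM in wild-type rats. The highest meningeal sum was that of Lrap-/+ rat 3, which was also the highest for Cdkn1a and the highest of its group for Dusp1. Blood markers were all lower (6 of 6), at 357 to 379 CPM in Lrap-/- rats, 246 to 479 CPM in Lrap-/+ rats and 357 to 691 CPM in wild-type rats. No microglial, meningeal or blood marker was at 0 in any library. Wild-type rat 2 was the lowest for Nr3c1, Tsc22d3, Sgk1, Fkbp5 and Cdkn1a. It also had the lowest sums of endothelial (71.4 CPM), hypothalamic (9.22 CPM), oligodendrocyte (2299 CPM), astrocyte (1218 CPM) and neuronal (1812 CPM) markers. The same rat had the highest sums of choroid plexus (545 CPM) and blood (691 CPM) markers. Pineal markers summed to 93.1 and 95.4 CPM in Lrap-/+ rats 2 and 3 and to 6.80 CPM or less in the other libraries. The cerebellar sum was 288, 39.8 and 222 CPM in Lrap-/- rats 1 to 3, 93.8, 122 and 170 CPM in Lrap-/+ rats 1 to 3 and 39.4, 45.7 and 371 CPM in the wild-type rats. Wild-type rat 3, Lrap-/- rat 1 and Lrap-/- rat 3, the highest for it, were also the 3 highest for Nr3c1. The part of these cell types and regions in the values of the 9 genes was not tested.

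In all, 4 pairs of targets passed a test of co-variation from rat to rat in CPM. The share that would pass over all pairs of loci was not computed. The shares that follow use another cut and other references, and so are no base rate for these pairs. Of 14240 symbol loci, 5.27% had an r above 0.9 with Nr3c1. With the mean of the standardised targets 2.12% did, and with Nr3c2 0.0632% did. Over the 9 rats, 19 of the 21 pairs of targets had a positive Pearson r of log2(CPM + 0.5), with a median of 0.60, and 7 of the 14 pairs of a receptor and a target did, with a median of 0.011. The tally for receptors and targets turned with the scaling: 2 of the 14 were positive with only symbol loci for scaling (median -0.48), and 12 of the 14 in log2(TPM + 0.1) (median 0.70). Of all 36 pairs, 4 passed an exact permutation test after Benjamini-Hochberg adjustment. Sgk1 and Tsc22d3 had r = 0.913 (adjusted permutation p = 0.0299), Sgk1 and Cdkn1a r = 0.830, Mt2A and Cdkn1a r = 0.899, and Cdkn1a and Dusp1 r = 0.860 (adjusted permutation p = 0.0414 for each of the 3). By Spearman's rho, 0.833, 0.867, 0.850 and 0.783 in that order, no pair of the 36 passed (smallest adjusted permutation p = 0.0729).

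Without the 2 rats farthest from the median of the first gene of each pair, r was 0.742, 0.790, 0.890 and 0.725 for the same 4 pairs. Centred within genotype, r was 0.895, 0.719, 0.732 and 0.826, and no pair of the 36 passed the adjusted within-genotype permutation test, in which 1 pair alone could reach no adjusted permutation p below 0.167. The calls depended on the scaling and on single rats. With only symbol loci for scaling 0 pairs passed and r became 0.617 for Sgk1 and Tsc22d3, 0.718 for Sgk1 and Cdkn1a, 0.856 for Mt2A and Cdkn1a and 0.865 for Cdkn1a and Dusp1. Without wild-type rat 2, r was 0.787, 0.805, 0.936 and 0.836 in the same order. With 1 rat left out, 0 pairs passed without wild-type rat 2, any Lrap-/+ rat, or Lrap-/- rat 1 or 3, 1 pair passed without wild-type rat 1 or Lrap-/- rat 2, and 4 pairs passed without wild-type rat 3. The spike-in patterns hold 4 and 5 libraries, too few for a correlation within each. The pairs share libraries and their scaling.

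**Figure D4:**
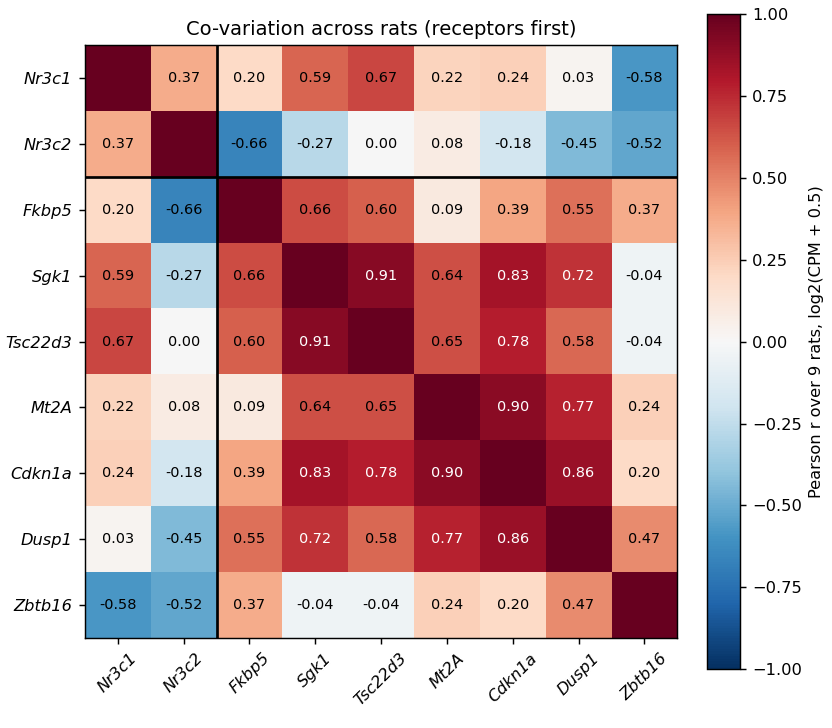
Pearson r of log2(CPM + 0.5) over 9 rats for each pair of the 9 genes, with receptors above and left of the black lines. The block of Sgk1, Tsc22d3, Mt2A, Cdkn1a and Dusp1 holds positive values throughout, up to 0.91, while Nr3c2 has values from -0.66 with Fkbp5 to 0.37 with Nr3c1.

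In CPM no pair of a receptor and a target passed. Nr3c1 had its highest r with Tsc22d3 (0.665, adjusted permutation p = 0.185) and its lowest with Zbtb16 (-0.580), and Nr3c2 had its lowest with Fkbp5 (-0.657, adjusted permutation p = 0.185). In log2(TPM + 0.1), 7 of the 14 pairs passed, among them Nr3c1 with Sgk1 (r = 0.934, adjusted permutation p = 0.0100) and Nr3c2 with Fkbp5 (r = 0.898, adjusted permutation p = 0.0110), whose sign was the opposite in CPM. With only symbol loci for scaling Nr3c1 and Tsc22d3 had r = -0.11. The receptors had r = 0.374 with each other in CPM. Zbtb16 had r of -0.04 with both Sgk1 and Tsc22d3.

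Dusp1 followed the immediate early genes, which neurons switch on within minutes of firing. The mean log2(CPM + 0.5) of 15 such genes, among them Fos, Arc, Egr1 and Junb, was 3.43, 4.27 and 3.79 in Lrap-/- rats 1 to 3, 2.57, 3.59 and 3.96 in Lrap-/+ rats 1 to 3 and 3.46, 2.60 and 2.43 in wild-type rats 1 to 3. Its r with Dusp1 over 9 rats was 0.938 (exact permutation p = 0.000576; 0.00518 adjusted over the 9 genes) and rho was 0.90 (adjusted permutation p = 0.0183). Without the 2 rats farthest from the median of that mean, r was 0.929, and centred within genotype it was 0.918 (within-genotype permutation p = 0.00926). It was 0.927 with only symbol loci for scaling, 0.879 in TPM and 0.915 to 0.976 when single rats were left out. None of the other 8 genes passed, with r of 0.790 for Cdkn1a and 0.775 for Mt2A (adjusted permutation p = 0.0652 each) and -0.055 for Nr3c1. The share of all loci that reach the r of Dusp1 with this mean was not computed, so how unusual Dusp1 is cannot be told.

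**Figure D5:**
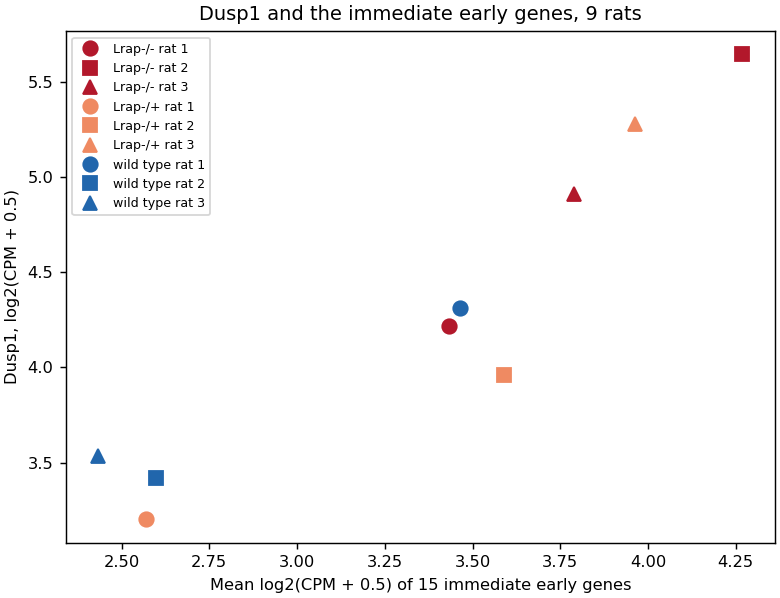
Dusp1 against the mean of 15 immediate early genes, both as log2(CPM + 0.5), in 9 rats coloured by genotype. The points rise together (r = 0.938), with Lrap-/- rat 2 and Lrap-/+ rat 3 at the upper end and Lrap-/+ rat 1, wild-type rat 2 and wild-type rat 3 at the lower end.

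The transcripts of the members were assembled as 1 isoform each for Nr3c1, Mt2A, Cdkn1a and Dusp1, and as 2 to 11 for the others. No isoform of the 63699 tested passed for Lrap-/- against wild type (0%), and 6.92% had an unadjusted edgeR p of 0.05 or less. The Tsc22d3 isoform MSTRG.113187.2 held 53.8, 53.5 and 46.0% of the gene's output in Lrap-/- rats 1 to 3, by the authors' isoform percent. It held 42.1, 42.9 and 46.3% in Lrap-/+ rats and 41.7 ± 2.75% in wild-type rats (SD, n = 3), and Lrap-/- and wild-type rats did not overlap (two-sided exact permutation p = 0.1). Its level had a log2 fold change of 0.69 (SE 0.28, edgeR adjusted p = 0.680). The Nr3c2 isoform MSTRG.49629.2 held 54.2 ± 2.24% in Lrap-/- rats, 52.3 ± 0.429% in Lrap-/+ rats and 49.4 ± 0.817% in wild-type rats (SD, n = 3 each), again without overlap between Lrap-/- and wild type (exact permutation p = 0.1). In all, 7 of the 24 tested isoforms of members with several had no overlap, against 13.0% of 35465 isoforms, and shares within a gene sum to a fixed total and so depend on each other. The most abundant Sgk1 isoform, MSTRG.969.2, held 63.5 ± 6.76% in Lrap-/- rats and 68.7 ± 4.04% in wild-type rats (exact permutation p = 0.5). For Fkbp5 and Zbtb16 the division among near-identical isoforms was unstable: MSTRG.100646.5 of Zbtb16 held 100, 22.7 and 50.7% in Lrap-/- rats 1 to 3.

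Genes that handle or follow the receptor's signal were set beside the members, and none passed in any comparison. Of 12 chaperones of steroid receptors, 10 were higher in Lrap-/- than in wild-type rats, and the median of their log2 fold changes was 0.17, near the 0.14 of symbol loci. The counts of genes higher, here and in the lists below, were made only with TMM scaling over all loci. They were not repeated under the other scalings, and the share of symbol loci that were higher is not given. For each list the genes named are those of smallest p, not of largest fold change. The smallest p among the chaperones were those of Stub1, a ubiquitin ligase (0.49, SE 0.21), Fkbp4, a co-chaperone that counters Fkbp5 (0.40, SE 0.21), and Hspa8 (0.47, SE 0.30). Of 11 coactivators and corepressors, 10 were higher, with a median of 0.16, among them Smarca4 (0.33) and Carm1 (0.17). All 6 tested genes that set brain steroid levels were higher, with a median of 0.23, and those named are H6pd (0.29), Hsd11b1 (0.15), the enzyme that regenerates active glucocorticoid, and Abcb1a (0.25).

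A second set of 29 tested genes was listed as glucocorticoid-responsive, and the response of each in brain was not tested. In this set 27 were higher in Lrap-/- than in wild-type rats, and the median log2 fold change of the 29 was 0.41, beside 0.14 for symbol loci under the same scaling. An unadjusted edgeR p of 0.05 or less was reached by 7, all higher (9.13% of all loci in either direction). The smallest p were those of the metallothionein Mt3 (0.85, SE 0.21), Gadd45g, a stress-response gene (1.22, SE 0.35), and the clock gene Per1 (0.86, SE 0.29), each with an edgeR adjusted p of 0.544. Of 9 tested genes of the hypothalamic-pituitary-adrenal axis, 8 were higher, with a median of 0.49, among them Crhr1 (0.67, SE 0.27), a receptor of corticotropin-releasing hormone, Mc4r (0.80, SE 0.35) and Pomc (0.59, SE 0.43). The 6 hypothalamic markers, which share Avp and Oxt with the axis list and so are not independent of it, were all higher too, with a median of 0.61. Their sum was 24.4 to 31.5 CPM in Lrap-/- rats, 19.0 to 29.5 CPM in Lrap-/+ rats and 9.22 to 31.9 CPM in wild-type rats. Their part in the values of this axis was not tested. All 15 tested immediate early genes were higher, with a median of 1.03, and 8 had an unadjusted p of 0.05 or less, among them Junb (1.88, SE 0.52), Egr4 (0.92, SE 0.32) and Fosl2 (1.03, SE 0.41). The list of glucocorticoid-responsive genes, like the members, holds genes that other stimuli also induce.

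Over 14240 symbol loci of at least 1 CPM, the genes most like Nr3c1 across the 9 rats were RGD1309995, Fam8a1, Supt16h, Csnk1g3 and Cnot2, with Pearson r of 0.985 to 0.989, and 750 loci had an r above 0.9. Nr3c2 had 9 such loci, led by Atp5j2 (0.965), Rpl21 (0.929), AABR07043200.1 (0.917), Ccdc90b (0.910) and Pigp (0.909). The mean of the standardised targets was most like Coq2 (0.988), Efnb1 (0.977), Ormdl3 (0.976), Tprg1l (0.974) and Rps19bp1 (0.973), and 302 loci had an r above 0.9. All these values share the same 9 libraries and their scaling.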

How the data were processed

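Whole-brain total RNA was depleted of ribosomal RNA and made into stranded libraries read as pairs, per the labels' protocols. The authors deposited expected counts per locus and isoform, TPM and isoform percent. Cutadapt, HISAT2, StringTie and RSEM were used with build rn6, per the submitters' processing notes. The sources used here do not give versions or the strand setting of counting, so antisense reads cannot be told apart. The table matched the libraries' own files in every value. The 99 spike-in loci of those files entered no library size or test.

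Expected counts were rounded to whole numbers. Loci were filtered with filterByExpr, scaled with TMM and fitted over all 9 rats with edgeR 4.0.16 (quasi-likelihood, robust, R 4.3.3). Adjusted p-values are Benjamini-Hochberg over 39057 loci or 63699 isoforms, with a threshold of 0.05, and each SE is the log2 fold change divided by the root of its F. DESeq2 1.42.0 and limma 3.58.1 gave alternatives. TPM was tested as log2(TPM + 0.1). Correlations used all 362880 pairings of 9 rats, or 216 within genotypes. The members and lists were chosen with earlier results of these data known. The genes named beyond the members are the 3 of smallest p of each list for Lrap-/- against wild type, and the 5 most like each receptor and the targets, except for 1 gene that is not reported here.

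Depth was 27489383 to 46975919 counts, and intervals cover the spread between rats only. Counts were simulated over 39057 loci, of which 200 were changed. For Lrap-/- against wild type, the test recovered 23.9% of the changed loci at a fold of 2, 80.6% at 4 and 93.9% at 8, with 8 false calls. The changed loci were drawn only from those above a minimum mean count, so recovery at the lowest counts was not measured. No pair of libraries of a genotype was alike within sampling noise: the chi-square per locus was 27.4 or more over 27233 loci. Gene symbols came from the deposited assembly, and promoters for 7 members matched by symbol.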

Additional observations from a re-analysis of the deposited data

Results flagged for a closer look

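A locus that is not among the 9 genes carried the name Nr3c1 and had counts in every library: MSTRG.46204 averaged 14.8 CPM over the 9 rats. It was at 12.2 to 16.6 CPM in Lrap-/- rats, 14.2 to 16.1 CPM in Lrap-/+ rats and 11.97 to 17.8 CPM in wild-type rats, with a log2 fold change of 0.08 for Lrap-/- against wild type, and its r with the main Nr3c1 locus was 0.84 over 9 rats. A locus inside an intron of Zbtb16 (MSTRG.100647) averaged 2.02 CPM.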

How the results depend on the processing

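No member passed in any comparison under any of the settings run (smallest edgeR adjusted p = 0.0588, Tsc22d3 for Lrap-/- against wild type with the spike-in term), and the cause of the other shifts was not tested. Of the single values in the alternatives, 487 kept their direction and side of the threshold and 73 reversed. The summary values are counts of loci, members or pairs called. Of these, 123 were equal or close to the main count, among them counts that stayed at 0, and 53 moved. In log2(TPM + 0.1), log2 fold changes turned negative for Nr3c1 (-0.70), Fkbp5 (-0.69), Sgk1 (-0.50), Tsc22d3 (-0.33), Mt2A (-0.10), Cdkn1a (-0.13) and Zbtb16 (-0.63) for Lrap-/- against wild type. They did so for Nr3c2 (-0.36), Fkbp5 (-0.34), Sgk1 (-0.30), Tsc22d3 (-0.065), Mt2A (-0.073), Cdkn1a (-0.026), Dusp1 (-0.0067) and Zbtb16 (-0.33) for Lrap-/+ against wild type, and for Nr3c1 (-0.24), Fkbp5 (-0.35), Sgk1 (-0.21), Tsc22d3 (-0.26), Mt2A (-0.030), Cdkn1a (-0.11) and Zbtb16 (-0.29) for Lrap-/- against Lrap-/+. In log2(TPM + 1) these values were Nr3c1 (-0.50), Fkbp5 (-0.48), Sgk1 (-0.44), Tsc22d3 (-0.31), Mt2A (-0.096), Cdkn1a (-0.069) and Zbtb16 (-0.42), then Nr3c2 (-0.30), Fkbp5 (-0.24), Sgk1 (-0.26), Tsc22d3 (-0.060), Mt2A (-0.066), Cdkn1a (-0.0091) and Zbtb16 (-0.22), then Nr3c1 (-0.17), Fkbp5 (-0.24), Sgk1 (-0.18), Tsc22d3 (-0.25), Mt2A (-0.031), Cdkn1a (-0.060) and Zbtb16 (-0.20), and the TPM difference of Dusp1 for Lrap-/+ against wild type turned to 0.019.

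With only symbol loci, values turned for Nr3c1 (-0.11), Fkbp5 (-0.11) and Zbtb16 (-0.055) in Lrap-/- against wild type, Nr3c2 (-0.090), Fkbp5 (-0.059) and Zbtb16 (-0.063) in Lrap-/+ against wild type and Fkbp5 (-0.050) in Lrap-/- against Lrap-/+. Without the filter, Fkbp5 (-0.017) turned in Lrap-/- against Lrap-/+. With the spike-in pattern as a term, Fkbp5 (-0.087) and Sgk1 (-0.0059) turned in Lrap-/+ against wild type, and within the pattern that holds Lrap-/+ rats and wild-type rats 1 and 3, an alternative chosen after seeing the data, Fkbp5 (-0.077) did.

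With single rats left out, log2 fold changes for Lrap-/- against wild type ran -0.066 to 0.25 for Nr3c1, -0.10 to 0.020 for Nr3c2 and -0.069 to 0.13 for Fkbp5. For Lrap-/+ against wild type they ran -0.19 to 0.13 for Nr3c1, -0.048 to 0.069 for Nr3c2, -0.087 to 0.12 for Fkbp5, -0.0065 to 0.29 for Sgk1, -0.17 to 1.00 for Dusp1 and -0.036 to 0.19 for Zbtb16. For Lrap-/- against Lrap-/+ they ran -0.10 to 0.0019 for Nr3c2, -0.034 to 0.057 for Fkbp5 and -0.070 to 0.24 for Tsc22d3. Loci called ran 0 to 5 for Lrap-/- against wild type, 1 to 28 for Lrap-/+ against wild type, 1 to 18 for Lrap-/- against Lrap-/+ and 0 to 3 for the slope, and pairs of members 0 to 4.

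Loci called, in the order Lrap-/- against wild type, Lrap-/+ against wild type, Lrap-/- against Lrap-/+ and slope, were 0, 3, 1 and 0 in edgeR, with 3565, 1454, 667 and 4262 at an unadjusted p of 0.05 or less. They were 33, 18, 6 and 37 in DESeq2, 3867, 32, 10 and 8157 in log2(TPM + 0.1), 4435, 68, 0 and 8010 in log2(TPM + 1), and 2188, 1, 5 and 1 with the spike-in term. Without the filter the first 3 were 6, 5 and 2. With only symbol loci Lrap-/+ against wild type and Lrap-/- against Lrap-/+ had 0 and 0, and with only the compared genotypes 7 and 2. DESeq2's size factors and limma-voom gave 2 each for Lrap-/- against Lrap-/+, and Lrap-/+ against wild type had 8 within the spike-in pattern. Pairs of members that passed were 4, against 17 in TPM, 0 when centred within genotype and 0 with only symbol loci.

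The replicate numbers are not shown to pair the rats: correlations of same-numbered deviations ran from -0.18 to 0.40. With the replicate number as a block, 1 locus was called for Lrap-/- against wild type and 2 for Lrap-/- against Lrap-/+, and 0 members. Cdkn1a was limited most by depth, at 75 to 166 counts a library.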
